A study of Bos indicus with 12 samples.

Results

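The genes described here are 33 components of the PI3K, AKT, mTOR and AMPK signalling network, taken by symbol from the 15178 genes measured in the bovine corpus luteum (CL). They comprise 4 class I and 3 class II or III catalytic subunits of PI3K, 5 PI3K regulatory subunits, 3 kinases of the AKT step, 4 subunits of the mTOR complexes, the TSC proteins and RHEB (3 genes), 4 outputs of mTOR complex 1, and 7 genes of AMPK and its upstream kinase LKB1. All 33 symbols had exactly 1 row. RNA-seq was performed on CL collected at slaughter on day 18 from non-lactating, multiparous Bos indicus cows whose cycles had been synchronized for timed insemination, 1 library per cow. The pregnant group (P, 6 cows) had been inseminated and carried an embryo that was recovered from the uterus at slaughter. The non-pregnant group (NP, 6 cows) went through the same synchronization without insemination, so that insemination and the embryo cannot be told apart between the groups. The question put to each gene was whether its mRNA level in the CL differed between P and NP cows.

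PI3K enzymes phosphorylate membrane lipids after a growth factor or hormone binds its receptor, and the lipid recruits AKT, which PDK1 and mTOR complex 2 then phosphorylate. AKT relieves the block that the TSC proteins place on the GTPase RHEB, and RHEB switches on mTOR complex 1, which drives protein synthesis through the S6 kinases and through release of the cap-binding protein EIF4E from its binding proteins. AMPK, which LKB1 activates when cellular energy is low, opposes mTOR complex 1. In luteal cells, this network is known as a route by which luteotropic hormones and insulin-like growth factors act on survival and steroid synthesis. Much of its control is by phosphorylation, which RNA-seq does not measure.

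Values are normalized counts, that is, reads per gene divided by a size factor of the library. Reads counted on genes came to 6148184 to 8253360 in the NP libraries (median 6996792.5) and 2038858 to 7534503 in the P libraries (median 4392938), and the 3 smallest libraries were those of P cows 28, 18 and 01 (2038858, 2589954 and 3152328 reads). Because these 3 stood apart in depth, results are given with and without them. A gene was called higher or lower in P when the Benjamini-Hochberg adjusted p of limma on log2(normalized count + 1) was below 0.05 and the log2 fold change was at least 0.58 in size. The fit covered the 11907 genes that reached 30 normalized counts in some cow, and 12% of them were called higher in P and 14.8% lower, 26.8% in all. The luteal markers with a row (6 genes, among them STAR and CYP11A1 of steroid synthesis) were present in every cow, 5 of them at 4659 normalized counts or more and PRLR at 18.4 to 123.4, with summed levels of 153263 to 276904 in NP and 189361 to 271311 in P, and none of them was called. Of the markers of other cells, 3 of 13 tested leukocyte genes were called higher (CD3E, CD8A and CORO1A), with summed levels of 1201 to 2573 in NP and 1445 to 2724 in P and no marker at 0. The 13 did not share a direction, with 7 log2 fold changes above 0 and 6 below (median 0.02). The lowest were CD68 (-0.685) and CD14 (-0.51), neither of them called. Without the 3 libraries, 1 of the 13 was called higher (CD8A), where 4.2% of all genes were. Among 8 endothelial markers, EGFL7 was called higher and PECAM1 and CDH5 lower, with sums of 6313 to 10699 in NP and 5689 to 12806.5 in P and none at 0. The log2 fold change was 1.12 for EGFL7, -2.56 for PECAM1 and -1.19 for CDH5. For PECAM1 and CDH5 every P cow lay below every NP cow. Of 7 pericyte and smooth muscle markers, MYH11, CNN1 and DES were called higher and PDGFRB lower (sums of 4874 to 12679 in NP and 5463 to 14646 in P, none at 0), and of 6 fibroblast markers PDGFRA was called higher and LUM lower, at a log2 fold change of -1.55 (sums of 32737 to 80301 in NP and 30507 to 72012 in P, none at 0). No follicle marker of 6 was called, but P cow 01 stood apart with AMH at 610.8 against 8.37 to 37.0 in the other 11 cows and CYP17A1 at 338.8 against 0 to 14.2, with sums of 1117 to 4781 in NP and 881 to 8478 in P. The red blood cell marker HBB was called higher, but it reached 30 normalized counts only in P cow 29 (39.54). HBB had 3 to 48 reads per library and was not called without the 3 libraries. HBA was at 0 in at least 1 cow. In bulk tissue, fewer cells of a type and less RNA per cell cannot be told apart, and the part of these cells in the results on the 33 genes was not tested.

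Most changes in this network were falls. Of the 33 genes, 31 passed the value filter, and PIK3CG and PRKAA2 did not. EIF4EBP1, a translation repressor, rose in P. Fallen in P were PIK3CB, PIK3C2A, PIK3R3, AKT2, RPTOR, PRKAB2, PRKAG2 and STK11, that is 8 of 31 genes or 25.8%, where 14.8% of all genes tested fell. PIK3R3 and PDPK1 passed the filter through a single NP cow, cow 42 (35.29) and cow 22 (32.98). When 30 had to be reached in at least 6 cows, PIK3CB and PIK3R3 were not tested. In that setting 6 of 28 genes fell (21.4%, against 14.2% of all genes). The single rise made up 3.23% of the 31 genes, where 12% of all genes rose. Over the 31 genes the median log2 fold change was -0.21, with 22 below 0 and 9 above, and over all genes tested it was -0.01. With the adjusted p alone and no minimum on the fold change, RICTOR joined on the higher side (2 genes, 6.45%, against 16.9% of all genes), and PIK3CA, AKT1, MTOR and RHEB joined on the lower side (12 genes, 38.7%, against 17.7% of all genes). In 4 genes the P and NP cows did not overlap (12.9%, against 13.6% of all genes), and these were PIK3C2A, AKT2 and STK11 with every P cow below (7.41% of all genes) and RICTOR with every P cow above (6.21% of all genes).

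In a RefSeq annotation of another assembly, 15 of the 33 genes overlap another entry, among them 4 of the called genes, PIK3CB, PIK3C2A, AKT2 and STK11. Whether the counting used strand, and how it treated reads that lie on both genes of a pair, is not given in the sources used here. The effect of such overlaps on the values was not tested.

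**Figure D1:**
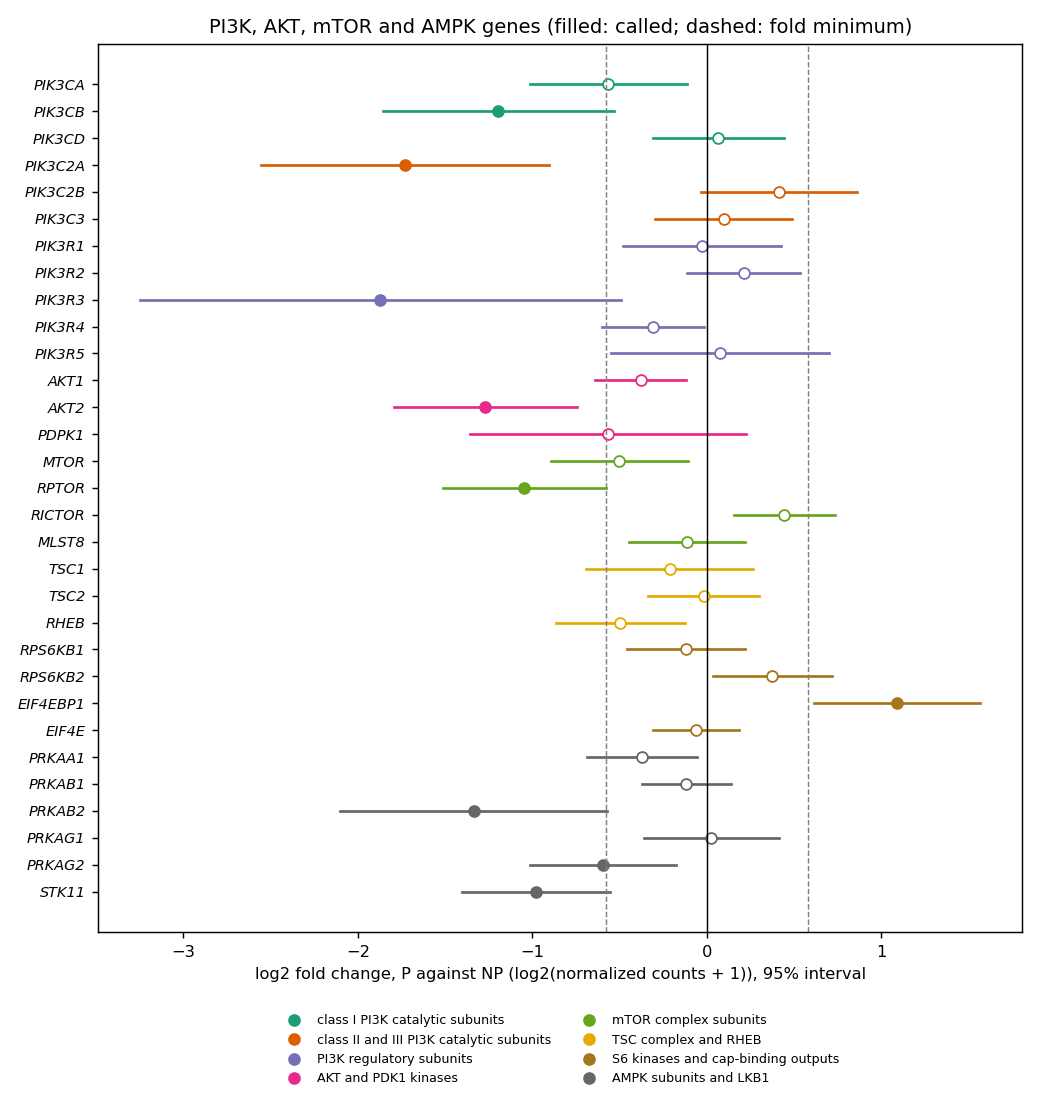
Log2 fold change of P against NP on the log2(normalized count + 1) scale (x axis) for the 31 genes tested, with 95% confidence intervals as lines and colours for the role of each gene. Filled points mark the 9 called genes and dashed lines the fold minimum of 0.58: 8 filled points lie left of 0, and EIF4EBP1 at 1.09 is the single filled point on the right.

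Without P cows 01, 18 and 28, the median over the 31 genes was again -0.21. EIF4EBP1 was still called higher (4.2% of 11514 genes tested in these cows were), and PIK3CB, PIK3C2A, AKT2, RPTOR and PRKAB2 were still called lower, 5 of 31 genes or 16.1%, against 8.04% of all genes. By the adjusted p alone, EIF4EBP1 was the single gene on the higher side (5.42% of all genes passed), and STK11 joined the 5 on the lower side (8.83% of all genes passed). When limma on all 12 cows also took the log2 total of each library as a covariate, EIF4EBP1 was called higher (1.53% of all genes were) and 0 of the 31 genes were called lower (2.75% of all genes were), with 6 lower at an unadjusted p below 0.05. The library total and the group are partly confounded, and in that fit the adjusted p of the 8 fallen genes lay between 0.0653 and 0.327. The lost calls differed in size there, since PIK3CB stayed at -1.15 and PRKAB2 at -1.42 on the log2 scale while AKT2 came to -0.71 and STK11 to -0.48.

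The class I catalytic subunits make the lipid signal at the plasma membrane. PIK3CB, the beta isoform, fell in P. Its level was 27.9 to 42.0 normalized counts in NP (median 38.2) and 8.14 to 32.9 in P (median 14.6). P cow 18 was the only P cow inside the NP range, and the other 5 lay below every NP cow. The log2 fold change was -1.20 (SE 0.31, adjusted p = 0.00942), and it was -1.14 (adjusted p = 0.0182) without the 3 smallest P libraries. With every library thinned to the reads of the smallest, the call was lost at -1.10 (adjusted p = 0.0752). The reads behind it were few, down to 4 in a P cow. PIK3CA, the alpha isoform, was at 54.4 to 85.0 in NP (median 60.1) and at 26.1 to 57.4 in P (median 44.6). Here 5 P cows lay below every NP cow and P cow 27 overlapped. Its log2 fold change of -0.57 (SE 0.21, adjusted p = 0.0491) was just under the fold minimum, crossed it on leaving out P cow 19 (-0.62) or P cow 27 (-0.65), and was -0.34 (adjusted p = 0.261) without the 3 libraries. PIK3CD and PIK3CG, the isoforms known mainly from leukocytes, were not called. The level of PIK3CD was 46.3 to 64.0 in NP (median 51.4) and 44.0 to 65.4 in P (median 58.0), with a log2 fold change of 0.07 whose 95% interval ran from -0.31 to 0.44 (adjusted p = 0.792). PIK3CG stayed below the filter, at 6.08 to 20.5 in NP (median 11.4) and 2.06 to 8.24 in P (median 5.13), which came to 1 to 25 reads per library and was not tested.

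PIK3C2A, a class II enzyme that acts in endocytosis and vesicle traffic, fell furthest among the catalytic subunits. The NP cows had 50.2 to 130.0 normalized counts (median 59.0) and the P cows 7.84 to 37.5 (median 25.5). NP cow 22 was far above the other NP cows, P cows 18 and 28 were the lowest, and the groups did not overlap. The change was -1.73 on the log2 scale (SE 0.39, adjusted p = 0.00452), or -1.26 (adjusted p = 0.021) without the 3 libraries, and the lowest P library held 3 reads of the gene. The other class II enzyme measured, PIK3C2B, pointed the other way without passing, at 168.4 to 307.8 in NP (median 197.6) and 157.9 to 392.8 in P (median 308.3), with a log2 fold change of 0.41 (SE 0.21, adjusted p = 0.134). PIK3C3, the class III enzyme of autophagy and endosomes, was at 122.3 to 176.3 in NP (median 137.0) and 94.0 to 193.0 in P (median 166.3). Its P values spread on both sides of the NP range, with 2 cows below and 3 above, and the log2 fold change was 0.10 (interval -0.30 to 0.49, adjusted p = 0.703).

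Among the regulatory subunits, only PIK3R3 was called. PIK3R3, an adaptor of class I enzymes, had 3.89 to 35.3 normalized counts in NP (median 11.2) and 0 to 6.17 in P (median 3.60). NP cows 22 and 42 were the highest, P cow 28 had no read of it, and 3 P cows lay below every NP cow. The log2 fold change was -1.87 (SE 0.65, adjusted p = 0.0362), from 0 to 44 reads per library. Dropping NP cow 22, 30 or 31 or P cow 01, 19 or 28 ended this call (log2 fold change -2.16 to -1.50 over the 11 cows whose omission left the gene tested, adjusted p up to 0.0951). Without NP cow 42 the gene was below the value filter and was not tested, and without the 3 libraries together the value was -1.41 (adjusted p = 0.168). PIK3R1, the main adaptor of class I enzymes, was at 128.8 to 276.5 in NP (median 187.7) and 133.3 to 262.2 in P (median 180.0). Every P cow lay inside the NP range, and the log2 fold change was -0.03 (interval -0.48 to 0.42, adjusted p = 0.926). PIK3R2, another class I adaptor, was at 294.3 to 421.4 in NP (median 378.5) and 316.3 to 588.0 in P (median 421.0), with a log2 fold change of 0.21 (adjusted p = 0.294). PIK3R4, the partner of PIK3C3, was at 315.6 to 407.1 in NP (median 375.6) and 215.9 to 352.9 in P (median 299.2). In it 3 P cows lay below every NP cow, and the log2 fold change of -0.31 (SE 0.14) had an adjusted p of 0.0901. PIK3R5, the partner of PIK3CG, was at 23.5 to 46.8 in NP (median 31.4) and 18.3 to 53.5 in P (median 34.3), with a log2 fold change of 0.08 (adjusted p = 0.854).

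AKT2 fell in P, and AKT1 and PDPK1 were not called. AKT2, the isoform known for insulin action, had 266.7 to 446.5 normalized counts in NP (median 294.7) and 74.0 to 216.1 in P (median 153.4). All 6 P cows were below all 6 NP cows, with P cows 18 and 28 lowest, and NP cow 32 stood well above the other NP cows. The difference came to a log2 fold change of -1.27 (SE 0.25, adjusted p = 0.00223), and it was -0.81 (adjusted p = 0.0178) without the 3 libraries. AKT1, the most widely expressed isoform, was at 543.5 to 742.6 in NP (median 623.4) and 386.6 to 571.5 in P (median 495.3). P cow 19 alone entered the NP range. Its log2 fold change of -0.38 (SE 0.12, adjusted p = 0.0267) was under the fold minimum and came to -0.22 (adjusted p = 0.241) without the 3 libraries. PDPK1, which encodes PDK1, was at 8.55 to 32.98 in NP (median 15.6) and 6.93 to 18.5 in P (median 9.36), with a log2 fold change of -0.57 (SE 0.37, adjusted p = 0.244).

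**Figure D2:**
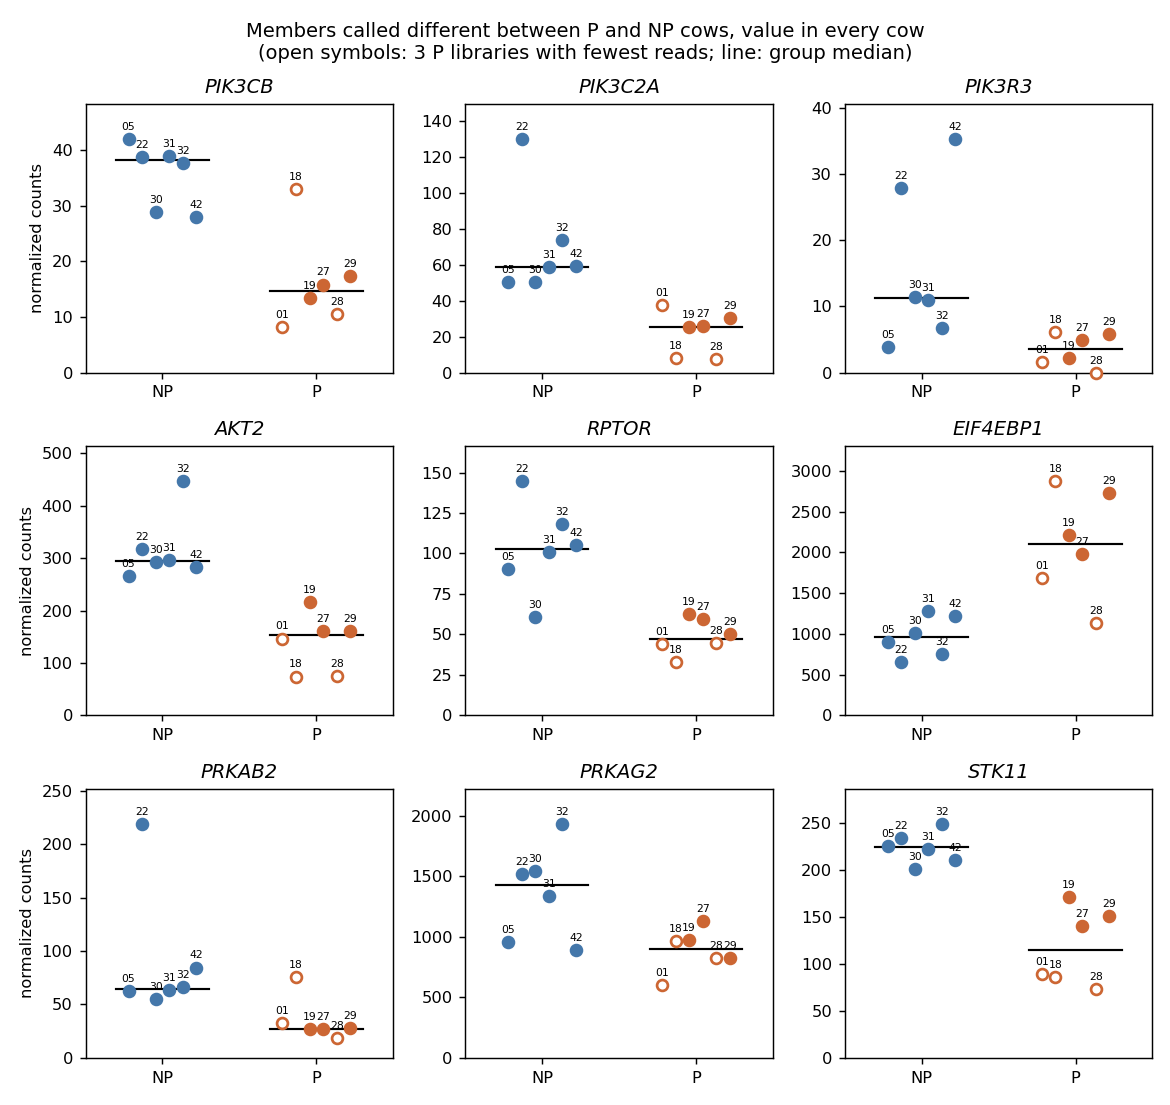
Normalized counts (y axis, from 0) in each cow for the 9 called genes, NP in blue and P in orange, with cow numbers beside the points, open symbols for P cows 01, 18 and 28 and a line at the group median. The groups do not overlap for PIK3C2A, AKT2 and STK11, a single P cow enters the NP range for PIK3CB, RPTOR, EIF4EBP1 and PRKAB2, and 3 P cows do so for PIK3R3 and PRKAG2.

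Of the 4 subunits of the mTOR complexes, RPTOR fell and the other 3 were not called. RPTOR, the scaffold that defines complex 1, had 60.9 to 144.6 normalized counts in NP (median 103.0) and 32.9 to 62.6 in P (median 47.3). P cow 19 lay just above the lowest NP cow, cow 30, and the other 5 P cows lay below all NP cows. On the log2 scale the change was -1.05 (SE 0.22, adjusted p = 0.00343), or -0.80 (adjusted p = 0.0476) without the 3 libraries. RICTOR, the scaffold that defines complex 2, was at 120.5 to 153.4 in NP (median 142.7) and 161.3 to 240.6 in P (median 187.5). Every P cow lay above every NP cow. Even so its log2 fold change of 0.45 (SE 0.14, adjusted p = 0.0209) did not reach the fold minimum, and without the 3 libraries it was 0.33 (adjusted p = 0.125). MTOR, the kinase of both complexes, was at 152.1 to 291.7 in NP (median 227.6) and 107.2 to 183.0 in P (median 154.6), so that 3 P cows were below the NP range and 3 inside it. Its log2 fold change was -0.50 (SE 0.18, adjusted p = 0.0459), under the minimum, with -0.60 on leaving out NP cow 30 and -0.44 (adjusted p = 0.168) without the 3 libraries. MLST8, a subunit of both complexes, was at 149.0 to 207.8 in NP (median 184.4) and 131.8 to 222.2 in P (median 165.9), with a log2 fold change of -0.12 (interval -0.45 to 0.22, adjusted p = 0.582).

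None of the 3 genes of the switch between AKT and mTOR complex 1 was called. RHEB, the GTPase that activates complex 1, was at 301.2 to 466.5 normalized counts in NP (median 395.6) and 203.6 to 403.8 in P (median 251.0). In RHEB 4 P cows were below the NP range, while P cow 19 was near the NP median. The log2 fold change of -0.50 (SE 0.17, adjusted p = 0.0384) was under the minimum, passed it on leaving out P cow 19 (-0.61), and was -0.27 (adjusted p = 0.355) without the 3 libraries. TSC2, whose protein turns RHEB off, was at 345.2 to 520.0 in NP (median 429.3) and 348.3 to 618.9 in P (median 390.1). Its log2 fold change of -0.02 had an interval of -0.34 to 0.30 (adjusted p = 0.936). TSC1, the stabilizing partner of TSC2, was at 112.0 to 164.9 in NP (median 134.9) and 74.0 to 185.7 in P (median 121.2), with a log2 fold change of -0.21 (interval -0.69 to 0.26, adjusted p = 0.474).

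EIF4EBP1 was the single gene that rose. It encodes a repressor that holds the cap-binding protein EIF4E until mTOR complex 1 phosphorylates it. The NP cows had 652.6 to 1276 normalized counts (median 956.8) and the P cows 1137 to 2871 (median 2096). P cow 28, the smallest library, was the only P cow inside the NP range, while P cows 18 and 29 were the highest. The rise came to a log2 fold change of 1.09 (SE 0.22, adjusted p = 0.00297), a 2.13-fold rise on this scale, and it was 1.28 (adjusted p = 0.00911) without the 3 libraries. The call held in all 28 alternatives tried, with values from 0.99 to 1.34. EIF4E itself was at 273.3 to 347.0 in NP (median 321.5) and 268.2 to 366.0 in P (median 295.6). The groups lay on each other, and the log2 fold change was -0.06 (interval -0.31 to 0.19, adjusted p = 0.705). Of the S6 kinases, RPS6KB1 was at 95.2 to 162.3 in NP (median 107.5) and 87.3 to 128.7 in P (median 104.6), with a log2 fold change of -0.12 (adjusted p = 0.577). RPS6KB2, the other S6 kinase, was at 162.5 to 252.5 in NP (median 219.4) and 219.1 to 417.4 in P (median 251.4), with a log2 fold change of 0.38 (SE 0.16, adjusted p = 0.0803).

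In the AMPK group, 3 of 6 tested genes fell (50%, against 14.8% of all genes). Without the 3 smallest P libraries, 1 of the 6 was called lower (16.7%, against 8.04% of all genes). STK11, which encodes the AMPK-activating kinase LKB1, had 200.8 to 248.8 normalized counts in NP (median 223.8) and 73.2 to 171.4 in P (median 115.0). The groups did not overlap, and P cows 28, 18 and 01 were the lowest. The log2 fold change was -0.98 (SE 0.20, adjusted p = 0.00292), and without these 3 cows it was -0.53 (adjusted p = 0.0241), which is under the fold minimum. PRKAB2, a scaffold subunit of AMPK, was at 55.5 to 218.8 in NP (median 64.8) and 18.3 to 76.1 in P (median 27.4). NP cow 22 was far above the other NP cows and P cow 18 was the only P cow in the NP range. Its log2 fold change was -1.34 (SE 0.36, adjusted p = 0.0112), or -1.53 (adjusted p = 0.0243) without the 3 libraries. PRKAG2, a nucleotide-sensing subunit, was at 888.9 to 1934 in NP (median 1428) and 599.4 to 1130 in P (median 898.2). NP cows 05 and 42 lay among the P cows. The log2 fold change of -0.59 (SE 0.20, adjusted p = 0.0295) was barely past the minimum, and the call ended on dropping NP cow 22, 30, 31 or 32 or P cow 01, 28 or 29 (log2 fold change -0.71 to -0.48 over the 12 cows) and without the 3 libraries (-0.44, adjusted p = 0.207). With thinned libraries it was -0.56, under the minimum.

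The other AMPK subunits among the 33 genes were not called. PRKAG1, another nucleotide-sensing subunit, was at 251.2 to 523.6 in NP (median 314.8) and 246.6 to 405.1 in P (median 345.9), with a log2 fold change of 0.03 (interval -0.36 to 0.41, adjusted p = 0.922). PRKAB1, another scaffold subunit, was at 386.9 to 523.6 in NP (median 428.4) and 360.0 to 470.5 in P (median 402.9), with a log2 fold change of -0.12 (interval -0.37 to 0.14, adjusted p = 0.453). For the catalytic subunits, PRKAA1 was at 293.6 to 400.2 in NP (median 357.1) and 215.9 to 355.2 in P (median 268.7), with a log2 fold change of -0.37 (SE 0.15, adjusted p = 0.0634). In PRKAA1 3 P cows lay below every NP cow. PRKAA2, the other catalytic subunit, was below the filter at 4.92 to 14.6 in NP (median 8.07) and 2.97 to 14.7 in P (median 12.1), from 3 to 23 reads per library, and was not tested.

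Ratios of partner genes inside a library do not depend on the scaling between libraries, and they are given on the log2 scale with no test. RICTOR to RPTOR, the scaffold of complex 2 to that of complex 1, was -0.26 to 1.21 in NP (median 0.56) and 1.43 to 2.87 in P (median 1.98). No P cow fell inside the NP range, and the mean difference was 1.51, or 1.14 without the 3 smallest P libraries. AKT1 to AKT2 was 0.46 to 1.23 in NP (median 1.09) and 1.40 to 2.56 in P (median 1.70), with a mean difference of 0.90, or 0.59 without the 3 libraries, and no overlap in either case. The ratio of the repressor EIF4EBP1 to its target EIF4E was 1.12 to 2.16 in NP (median 1.54) and 1.64 to 3.27 in P (median 2.86). Here P cow 28 alone overlapped, and the mean difference of 1.15 became 1.43 without the 3 libraries. The remaining planned ratios overlapped between the groups: the mean difference was 0.62 for PRKAG1 to PRKAG2, 0.55 for PIK3R1 to PIK3CA, 0.20 for TSC2 to TSC1 and -0.53 for PRKAA1 to PRKAA2. Without the 3 libraries these came to 0.24, 0.24, -0.06 and -0.09. The last of these ratios rests on PRKAA2, which was below the value filter at 3 to 23 reads per library.

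**Figure D3:**
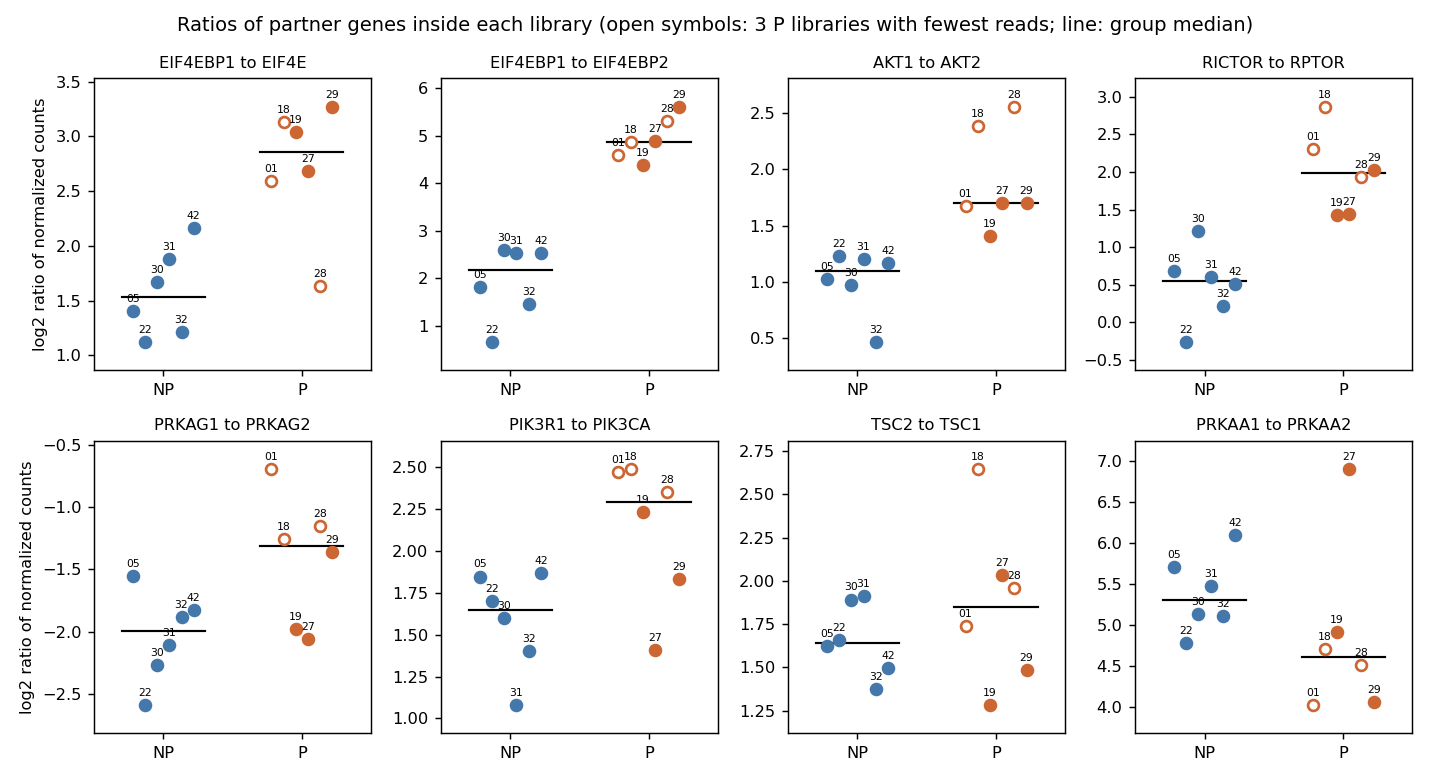
Log2 ratio of the normalized counts of 2 genes in the same library (y axis, a separate scale in each panel), NP in blue and P in orange, with cow numbers, open symbols for P cows 01, 18 and 28 and a line at the group median. The groups are apart for EIF4EBP1 to EIF4EBP2, AKT1 to AKT2 and RICTOR to RPTOR, P cow 28 alone overlaps for EIF4EBP1 to EIF4E, and the lower 4 ratios overlap.

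Cow by cow, the falls were shared by the P group but not to the same depth. P cows 01 and 28 lay below the lowest NP cow in all 8 fallen genes, P cow 29 in 7, P cows 19 and 27 in 6 each, and P cow 18 in 4. The median log2 difference of the 8 genes from the NP mean was -1.84 in P cow 28, whose library was the smallest, -1.22 in P cow 01 and -1.13 in P cow 18. It was -0.98 to -1.03 in the other 3 P cows. These genes were chosen as fallen, so their direction is a description, and the part of library depth in the differences among P cows was not tested.

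**Figure D4:**
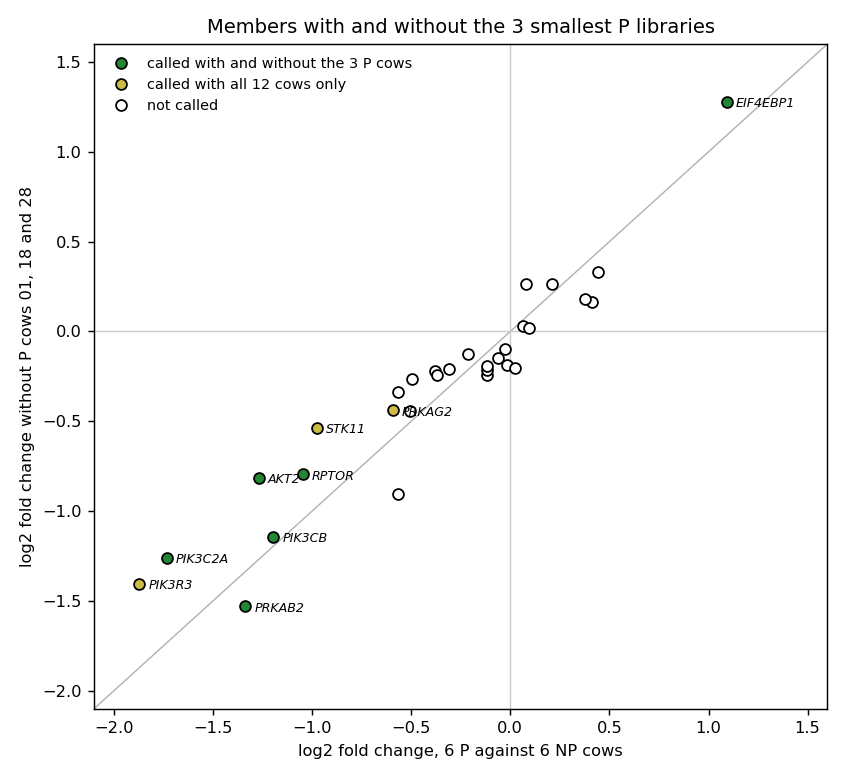
Log2 fold change of the 31 genes with all 12 cows (x axis) and without P cows 01, 18 and 28 (y axis), with a grey line where both are equal. The 6 green genes were called both ways, while PIK3R3, PRKAG2 and STK11 in yellow were called with all 12 cows only; AKT2, PIK3C2A and STK11 lie nearer to 0 without the 3 cows.

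The same test was read for other genes of the network. Of 78 further genes of the pathway, 75 had a row and 72 were tested; 6 of them rose (8.33%, against 12% of all genes tested) and 8 fell (11.1%, against 14.8%), with a median log2 fold change of -0.03. The falls included 3 of 8 translation factors downstream of mTOR complex 1 (37.5%, against 14.8% of all genes). EIF4EBP2, a second repressor of EIF4E, was at 168.1 to 413.5 normalized counts in NP (median 238.4) and 28.8 to 105.8 in P (median 68.7). Every P cow lay below every NP cow, and the log2 fold change was -1.90 (SE 0.28, adjusted p = 0.00093), opposite in sign to that of EIF4EBP1. Because the pair moved apart, its ratio was taken afterwards: EIF4EBP1 to EIF4EBP2 was 0.66 to 2.59 on the log2 scale in NP (median 2.17) and 4.39 to 5.61 in P (median 4.87), a mean difference of 3.01, or 3.03 without the 3 libraries. EIF4G1, the scaffold of the cap-binding complex, fell by 0.94 on the log2 scale (SE 0.16, adjusted p = 0.00134), and EIF4B, a helper of the initiation helicase and a substrate of S6 kinase, fell by 0.77 (SE 0.18, adjusted p = 0.00606). Both had all P cows below all NP cows. RPS6, the ribosomal substrate of the S6 kinases, was at 3249 to 4481 in NP and 3923 to 6046 in P, with a log2 fold change of 0.30 (adjusted p = 0.101).

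**Figure D5:**
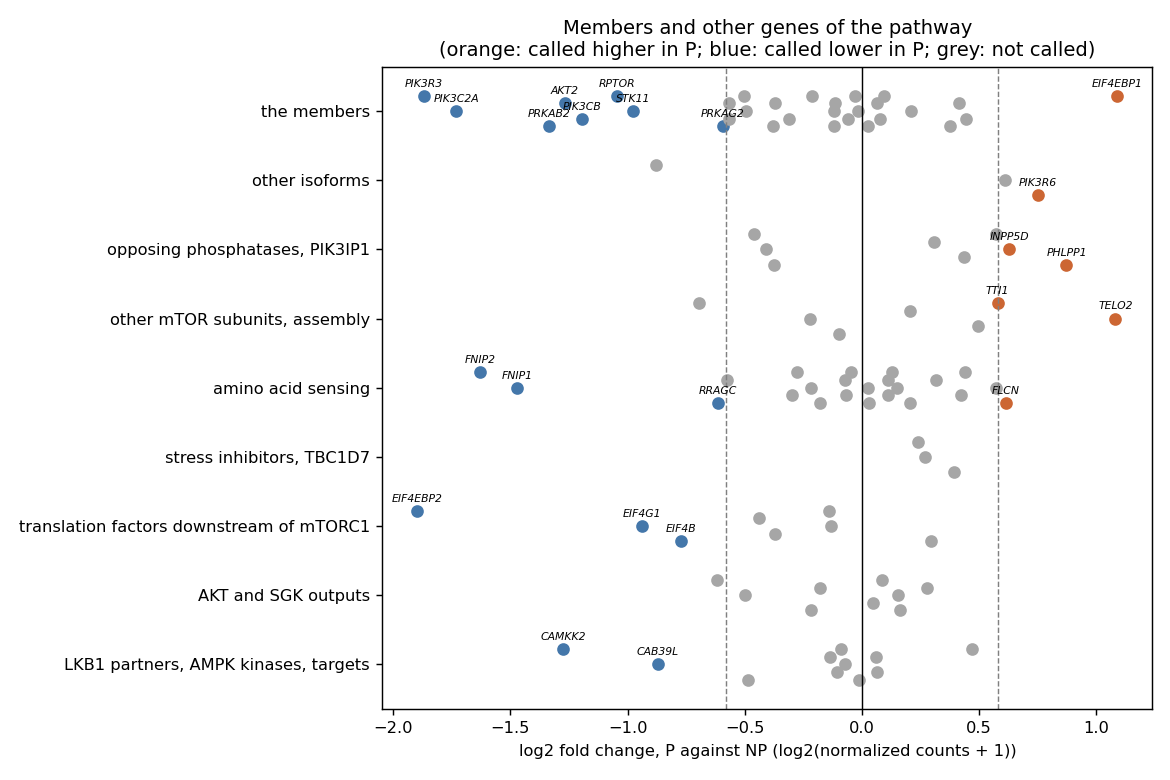
Log2 fold change of P against NP (x axis) for the 31 tested genes of the network (top line) and 72 other pathway genes by sub-list (lines below), orange where called higher in P, blue where called lower and grey where not called; dashed lines mark the fold minimum of 0.58. The falls among the other genes lie in the lines of amino acid sensing, translation factors and LKB1 partners with AMPK kinases, and TELO2 at 1.08 is the furthest rise.

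Of 11 tested partners of LKB1, AMPK kinases and AMPK targets, 2 fell (18.2%, against 14.8% of all genes). CAB39L, a form of the MO25 scaffold that holds LKB1 active, was at 93.8 to 187.1 normalized counts in NP (median 147.5) and 62.6 to 90.5 in P (median 74.1), with no overlap and a log2 fold change of -0.87 (SE 0.20, adjusted p = 0.00454). CAMKK2, a calcium-dependent kinase that activates AMPK without LKB1, was at 87.5 to 363.4 in NP (median 170.4) and 51.5 to 168.6 in P (median 61.5), with P cow 18 alone in the NP range and a log2 fold change of -1.28 (SE 0.33, adjusted p = 0.00925). Among 23 tested genes of amino acid sensing, 3 fell (13%, against 14.8% of all genes) and 1 rose (4.35%, against 12%). FNIP2 (-1.63, adjusted p = 0.00585), FNIP1 (-1.47, adjusted p = 0.0276) and RRAGC (-0.61, adjusted p = 0.0121) fell, and FLCN rose (0.62, adjusted p = 0.00572). FNIP1 and FNIP2 are the binding partners of folliculin, the product of FLCN, and RRAGC is a Rag GTPase that folliculin acts on. FNIP1 rested on as few as 1 read in a library, and its call was lost without NP cow 22 or NP cow 42 (log2 fold change -1.72 to -1.04 over the 12 cows left out in turn). FNIP2 passed the value filter only through NP cows (highest 79.91, against at most 18.3 in P). Its reads were as few as 3 in a P library. RRAGC was under the fold minimum with edgeR (-0.58) and DESeq2 (-0.55), and its call was lost without P cow 01, 28 or 29 (-0.70 to -0.54), as was that of FLCN without NP cow 05 or P cow 01 or 28 (0.55 to 0.69).

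The rises lay elsewhere. TELO2, a chaperone partner that assembles mTOR and related kinases, was at 127.5 to 173.4 normalized counts in NP (median 137.3) and 217.7 to 403.0 in P (median 330.7). All P cows lay above all NP cows, and the log2 fold change was 1.08 (SE 0.16, adjusted p = 0.00093), or 0.83 (adjusted p = 0.0136) without the 3 libraries. TTI1, its partner, was at the fold minimum with 0.58 (adjusted p = 0.0385), and 0.16 without the 3 libraries. PHLPP1, a phosphatase that removes an activating phosphate from AKT, rose by 0.87 (SE 0.20, adjusted p = 0.00463), and INPP5D, a leukocyte phosphatase of the PI3K lipid, rose by 0.63 (adjusted p = 0.0395). PIK3R6, an adaptor of PIK3CG, rose by 0.75 (adjusted p = 0.0301). The calls of TTI1, INPP5D and PIK3R6 were each lost on leaving out at least 6 single cows of the 12, among them P cows 01 and 18, with log2 fold changes down to 0.47, 0.51 and 0.60. Without the 3 smallest P libraries, TELO2 was the only one of the 6 rises still called (4.2% of all genes were called higher in these cows), while PHLPP1 kept a log2 fold change of 0.72 (adjusted p = 0.0554). In the same cows, 6 of 71 genes tested (8.45%) were called lower, where 8.04% of all genes were, namely EIF4EBP2 (-1.73), EIF4G1 (-0.76), EIF4B (-0.68), CAB39L (-1.01), CAMKK2 (-1.64) and FNIP2 (-1.62).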

How the data were processed

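Libraries of poly-A selected CL RNA, 1 for each of the 6 P and 6 NP cows, were read as single-end reads. Trimming (cutadapt), mapping to ARS-UCD1.2 (STAR, 2.4.2a in the submitters' processing notes), counting on Ensembl genes (htseq-count) and a DESeq2 test were done by the authors. The deposited signal values are those counts after division by a DESeq2 size factor per library, for 15178 genes, 1616 of them without a symbol. Columns of the authors' own comparison (log2 fold change and p-values) were not used. Reads were recovered from the step between low values, which gave whole numbers (tolerance 0.0051) for 99.98% or more of the genes in each library.

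The main test was limma 3.58.1 (R 4.3.3, variance trend) on log2(value + 1), over the 11907 genes that reached 30 in some cow, with Benjamini-Hochberg adjustment over all of them. Calls required both the adjusted p (0.05) and the size of the log2 fold change (0.58). Alternatives were edgeR 4.0.16 with 3 normalizations, DESeq2 1.42.0 and limma-voom on the recovered reads, other pseudocounts, filters and fold minimums, 1 surrogate variable (sva 3.50.0), the library total as covariate, thinning to 2038858 reads, summed repeated symbols, and leaving out cows.

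The genes and lists were chosen with earlier results of these data known. Every one of the 33 genes is named. Of the other pathway genes, those named are up to 4 per sub-list past the test, by smallest p, with EIF4EBP2 and RPS6. The ratio of EIF4EBP1 to EIF4EBP2, and leaving out the 3 smallest P libraries with no fold minimum, were chosen after seeing the data. PIK3C2G, GSK3B, SGK2 and LHCGR were not analysed here, and sequences, gene lengths and GC content were not used here. A few pathway genes were tested but are left unreported.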

Additional observations from a re-analysis of the deposited data

Results flagged for a closer look

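In 17 of 112 groups of 6 cows (33 genes, RPS6 and the other pathway genes described, and the ratios), the highest or lowest cow stood apart from the other 5 by more than 0.625 of the whole range of the group, which chance gives in about 1 of 20 groups. NP cow 22 accounted for 8 of them. It was the highest NP cow for PIK3CA (84.98 normalized counts), PIK3C2A (130.0), PIK3C3 (176.3), PDPK1 (32.98), RPS6KB1 (162.3), PRKAB2 (218.8) and FNIP2 (79.91), and the lowest for PIK3R2 (294.3). NP cow 32 stood apart with the highest NP level of AKT2 (446.5) and PRKAG1 (523.6), and with the lowest log2 ratio of AKT1 to AKT2 (0.4617). P cow 18 had the highest P level of PIK3CB (32.9), PRKAB2 (76.08) and CAMKK2 (168.6). RPS6 stood out in NP cow 30 (4481) and in P cow 01 (6046), and the log2 ratio of PRKAA1 to PRKAA2 in P cow 27 (6.902). In P cow 27 that ratio rests on 3 reads of PRKAA2. Without NP cow 22, PIK3C2A and PRKAB2 were still called lower, and without NP cow 32 so was AKT2.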

How the results depend on the processing

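No paired analysis was possible because the P and NP cows share no number. Over all genes, 3197 calls became 1471 with a log2 fold minimum of 1, 510 with the library total as covariate and 1410 without P cows 01, 18 and 28. Of the 31 genes, those called higher went from 1 to 2 with no fold minimum, where 16.9% of all genes were called higher. The members called lower went from 8 to 0 with the library total and to 5 without the 3 cows. They came to 6 with thinned reads (PIK3CB at -1.10 and PRKAG2 at -0.56 lost), and ranged from 6 to 9 on leaving out 1 cow. Of all genes, 14.8% were called lower in the main fit, 2.75% with the library total, 8.04% without the 3 cows and 12.8% with thinned reads. On leaving out 1 cow, 11.3% to 16.2% of all genes were called lower. Of the 31 genes, those without overlap went from 4 to 7 without the 3 cows, where fewer P cows had to lie apart. The share of all genes without overlap was not counted in these cows, so the 7 cannot be set against it. The other pathway genes called higher went from 6 to 3 with upper quartile factors and with limma-voom, and to 11 with no fold minimum. They went to 1 with a minimum of 1, with the library total and without the 3 cows. Of all genes, 12% were called higher in the main fit, 10.6% with upper quartile factors and also with limma-voom, and 16.9% with no fold minimum. The share was 4.31% with a minimum of 1, 1.53% with the library total and 4.2% without the 3 cows. On leaving out 1 cow, the other pathway genes called higher ranged from 2 (without NP cow 05) to 8, with 3 without P cow 01, 18 or 28. Over the same omissions, 9.82% to 13.9% of all genes were called higher. The other pathway genes called lower went from 8 to 4 with a minimum of 1 (8.05% of all genes) and with the library total (2.75% of all genes). Changes of sign touched only log2 fold changes near 0 that no setting called: PIK3CD (-0.030 with the surrogate variable, -0.060 with the library total), PIK3R1 (0.058 with the surrogate variable), PIK3R5 (-0.013 with it), TSC1 (0.015 with it), TSC2 (0.0046 with relative log expression, 0.0035 with DESeq2, 0.030 with the surrogate variable), EIF4E (0.027 thinned) and PRKAG1 (-0.017 with TMM, -0.019 with voom, -0.058 with upper quartile, -0.047 with the surrogate variable, -0.24 with the library total, -0.20 without the 3 cows). On leaving out 1 cow, PIK3R1 ranged from -0.138 to 0.081, PIK3R5 from -0.053 to 0.246, TSC2 from -0.130 to 0.040 and PRKAG1 from -0.044 to 0.168. The causes were not tested. Among the called genes, PIK3R3, PIK3CB and PIK3C2A each had 4 reads or fewer in a P library. With thinned reads, PIK3R3 and PIK3C2A were still called lower and PIK3CB was not.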
